A study of Mus musculus with 8 samples.

Results

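Notch signalling passes between neighbouring cells, and the genes described here carry its first steps in Paneth cells, the granule-filled secretory cells at the base of small intestinal crypts. The set held the Notch ligands Dll1, Dll4, Jag1 and Jag2, the receptors Notch1 and Notch2, the Fringe glycosyltransferases Lfng, Mfng and Rfng, and the DNA-binding factor Rbpj. They were chosen by name for their role, with earlier results of these data known. Each was taken by the Ensembl ID that the GENCODE annotation pairs with its symbol, and they made up 10 of the 55414 gene IDs in the count table. RNA came from Paneth cells that were sorted from the small intestine of wild-type (WT) mice 3 hours after injection of phosphate-buffered saline (PBS, the control) or tumor necrosis factor (TNF, an inflammatory cytokine). There were 4 PBS and 4 TNF libraries, and nothing else distinguished the groups in their labels. The study's methods name C57BL/6J mice for its Paneth cell sorting, while the TNF dose and the age of the mice were not stated there. The study describes its sequenced samples as coming from individual mice, but no label ties a library to a mouse, so p-values measure the spread between these libraries.

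A Delta or Jagged ligand on one cell binds a Notch receptor on its neighbour, the receptor is cut by an ADAM protease and then by gamma-secretase, and its freed intracellular domain joins Rbpj on DNA to switch on targets such as Hes1. Fringe enzymes extend a sugar on the receptor and thereby change which ligands it answers. In the crypt, Paneth cells are known to present Dll1 and Dll4 to the Lgr5-positive stem cells beside them, and Notch activity in those cells holds back Atoh1, the factor that commits a cell to a secretory fate.

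Totals per library ran from 23824717 to 32576077 counts, and Nfkbia, a direct NF-kB target, rose from 23.7 ± 2.63 to 344 ± 34.0 normalized CPM (SD, n = 4 each) in the TNF libraries. Normalized CPM are CPM values (counts scaled to the library total) after TMM correction, which sets libraries to a common level over most genes. TNF replicate 4 stood apart: the alpha-defensin (Defa) genes took 51.5% of its counts against 32.0 to 37.9% in the other 7 libraries, its TMM factor was 0.448 against 0.995 to 1.36, and it lay alone on the second principal component, which held 15.8% of the variance. Most of the Notch genes had their fewest counts in it, and calls of the Notch and marker genes that changed without it are given below. The labelled cell type was borne out by its markers: Lyz1, Defa24, Itln1, Mmp7 and Ang4 together held 270196 to 395264 normalized CPM in PBS and 337209 to 1031967 in TNF, and none of the 5 passed the test for a difference. The upper TNF value was that of TNF replicate 4, scaled up by its low TMM factor. Its Lyz1 level, for one, was 454456 normalized CPM against 139916 to 165549 in the other TNF libraries.

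Of the 10 genes, 9 passed the filter on low counts, 6 of them fell with TNF and none rose at an adjusted p under 0.05 (edgeR's quasi-likelihood test, Benjamini-Hochberg over 13368 genes). Lfng and Dll4 fell most, then Notch1 and Dll1, then Jag1 and Rfng by less, while Jag2, Notch2 and Rbpj did not pass. The response to TNF was broad, so these calls stand against a high background: 43.0% of all tested genes were called, 19.6% lower and 23.3% higher. The median log2 fold change was -0.67 over the 9 tested genes of the set and 0.03 over all tested genes. In all 6 called genes every TNF library lay below every PBS library, which was so for 19.7% of all tested genes. Without TNF replicate 4, 5 of the 9 were called, the difference being Rfng, while 50.4% of all tested genes were called.

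**Figure D1:**
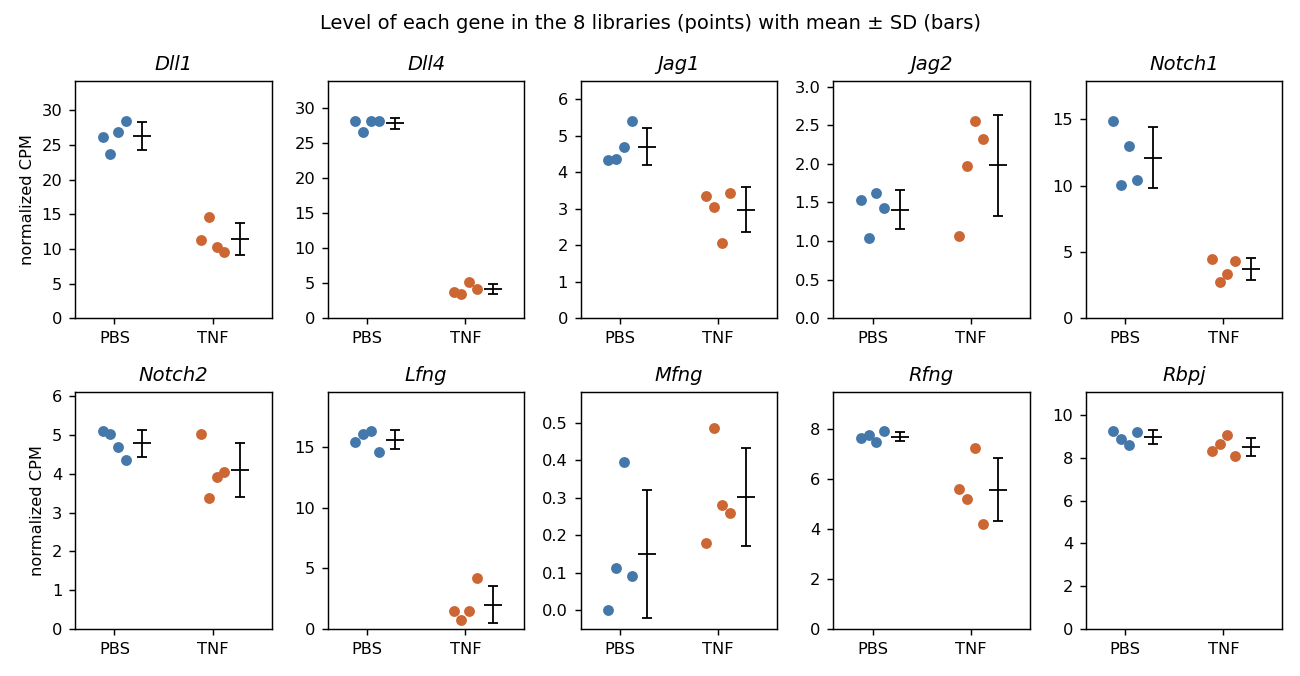
Normalized CPM of the 10 genes in each of the 4 PBS and 4 TNF libraries (points, in replicate order from left to right), with the group mean ± SD beside them. Each panel has its own linear axis, and in Dll1, Dll4, Jag1, Notch1, Lfng and Rfng all TNF points lie below all PBS points.

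**Figure D2:**
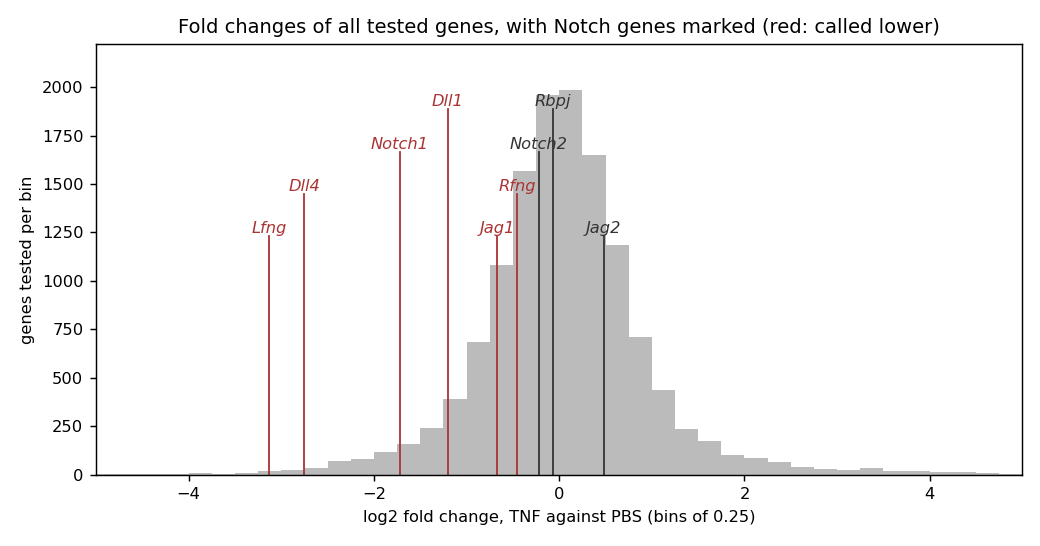
Number of tested genes per bin of log2 fold change (TNF against PBS) in grey, with vertical lines at the values of the 9 tested Notch genes (red where called lower), and line heights only space the names. Lfng at -3.13 and Dll4 at -2.75 sit in the left tail, and Rbpj at -0.07 sits at the centre.

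The sequence just before the start of a transcript commonly holds part of its promoter, and it is shown for Lfng, Dll4 and Notch1, the 3 genes of the set with the largest falls. Each run is the 250 bases before the start of the canonical transcript, 5′ to 3′ on the strand of the gene (GRCm39), with capitals marking matches to TGGGAA, the core bound by Rbpj, or CAGCTG, an E-box of the kind Atoh1 can bind, on either strand. The windows were chr5:140592825-140593074 (plus strand) for Lfng, chr2:119155920-119156169 (plus) for Dll4 and chr2:26393835-26394084 (minus) for Notch1. The Notch1 window lies inside the annotated span of the gene, since other annotated Notch1 transcripts start further upstream than the canonical one.
Lfng: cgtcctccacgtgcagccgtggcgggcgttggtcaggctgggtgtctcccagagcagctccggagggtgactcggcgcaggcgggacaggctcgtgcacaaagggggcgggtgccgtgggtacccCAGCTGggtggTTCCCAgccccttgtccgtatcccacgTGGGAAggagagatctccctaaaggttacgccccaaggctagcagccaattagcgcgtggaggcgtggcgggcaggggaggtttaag
Dll4: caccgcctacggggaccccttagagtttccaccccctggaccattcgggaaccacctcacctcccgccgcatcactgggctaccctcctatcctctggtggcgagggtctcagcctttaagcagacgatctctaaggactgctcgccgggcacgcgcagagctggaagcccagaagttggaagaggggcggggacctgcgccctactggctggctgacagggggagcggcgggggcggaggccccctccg
Notch1: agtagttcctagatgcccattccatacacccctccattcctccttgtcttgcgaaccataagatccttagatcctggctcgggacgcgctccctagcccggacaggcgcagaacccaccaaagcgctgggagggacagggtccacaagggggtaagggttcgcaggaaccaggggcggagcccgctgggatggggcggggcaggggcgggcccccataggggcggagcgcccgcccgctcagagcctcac
The Lfng window held 2 matches to TGGGAA, on the minus strand at -114 to -109 and on the plus strand at -87 to -82, counted from the start, and 1 match to CAGCTG at -125 to -120. These matches did not overlap each other. The Dll4 and Notch1 windows held neither set of letters. Across 21757 windows of the same length before genes of the annotation, 22.7% held TGGGAA and 11.9% held CAGCTG on either strand. Of the other 7 genes, Mfng had 2 matches to each motif, Rbpj had 1 to TGGGAA at -190 to -185, and Dll1, Jag1, Jag2, Notch2 and Rfng had none. Like that of Notch1, the Dll1 and Rbpj windows lie inside the annotated span of their gene, and the Mfng and Rfng windows do so in part. A match of this kind describes the letters only.

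Among the ligands, both Delta-like genes and Jag1 fell and Jag2 did not pass the test. Dll4 (ENSMUSG00000027314, chromosome 2, 119156170 to 119166443, plus strand) encodes one of the Delta-like ligands displayed to stem cells, and is also known from blood vessel sprouting. Its level was 28.2, 26.6, 28.2 and 28.2 normalized CPM in PBS replicates 1 to 4 and 3.76, 3.43, 5.16 and 4.21 in the TNF replicates. The PBS libraries were tight and the TNF libraries were all far below them. The mean went from 27.8 ± 0.794 to 4.14 ± 0.752 (SD, n = 4 each), a log2 fold change of -2.75 ± 0.14 (SE) at an adjusted p of 3.26e-07, or 6.71-fold lower. Of all 13368 tested genes, 0.606% fell as far or further.

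Dll1 (ENSMUSG00000014773, chromosome 17, 15587276 to 15597134, minus strand), the other Delta-like ligand of the crypt, stood at 26.1, 23.7, 26.9 and 28.5 normalized CPM in PBS and at 11.3, 14.6, 10.2 and 9.54 in TNF. The groups were well separated, with TNF replicate 2 highest in its group. The mean fell from 26.3 ± 1.97 to 11.4 ± 2.26 (SD, n = 4 each), with a log2 fold change of -1.20 ± 0.15 (SE) at an adjusted p of 8.27e-05. This 2.30-fold fall was matched or exceeded by 6.29% of tested genes.

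Jag1 (ENSMUSG00000027276, chromosome 2, 136923373 to 136958693, minus strand) encodes a Jagged ligand. It read 4.34, 4.35, 4.69 and 5.41 normalized CPM in PBS and 3.34, 3.05, 2.07 and 3.44 in TNF. The gap between the groups was narrower than for the Delta-like genes, and TNF replicate 3 was lowest. Its log2 fold change was -0.67 ± 0.19 (SE, adjusted p = 0.0147), and 15.9% of tested genes fell as far. Jag2 (ENSMUSG00000002799, chromosome 12, 112871421 to 112893437, minus strand), the second Jagged ligand, was a low-level gene at 1.53, 1.04, 1.62 and 1.43 normalized CPM in PBS and 1.07, 1.97, 2.56 and 2.32 in TNF. Those groups overlapped, and its log2 fold change of 0.48 ± 0.29 (SE) at an adjusted p of 0.205 did not pass the test.

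Of the receptors, Notch1 fell and Notch2 did not pass the test. Notch1 (ENSMUSG00000026923, chromosome 2, 26347915 to 26406675, minus strand) was at 14.9, 10.05, 13.0 and 10.4 normalized CPM in PBS and at 4.44, 2.7, 3.34 and 4.30 in TNF. The lowest PBS library was still more than any TNF library. Its mean went from 12.1 ± 2.26 to 3.69 ± 0.823 (SD, n = 4 each), a log2 fold change of -1.72 ± 0.20 (SE) at an adjusted p of 5.67e-05, or 3.30-fold lower, a fall that 2.91% of tested genes reached. Notch2 (ENSMUSG00000027878, chromosome 3, 97920800 to 98057677, plus strand), the second receptor that crypt cells are known to use, was at 5.10, 5.02, 4.69 and 4.35 normalized CPM in PBS and 5.04, 3.39, 3.93 and 4.04 in TNF. TNF replicate 1 lay within the PBS range, and the log2 fold change was -0.22 ± 0.16 (SE, adjusted p = 0.294).

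The Fringe genes differed widely in level and in change. Lfng (ENSMUSG00000029570, chromosome 5, 140593075 to 140601300, plus strand), lunatic fringe, was at 15.4, 16.1, 16.3 and 14.6 normalized CPM in PBS and at 1.49, 0.762, 1.47 and 4.21 in TNF. PBS values were close together, and TNF replicate 4 was well above the other TNF libraries. These values stood for 414 to 646 counts in PBS and 22 to 49 in TNF. The log2 fold change was -3.13 ± 0.37 (SE, adjusted p = 7.66e-05), or 8.74-fold lower, and -3.63 without TNF replicate 4. Only 0.337% of tested genes fell as far as Lfng.

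Rfng (ENSMUSG00000025158, chromosome 11, 120671370 to 120675329, minus strand), radical fringe, stood at 7.62, 7.74, 7.49 and 7.90 normalized CPM in PBS and at 5.61, 5.19, 7.23 and 4.21 in TNF. TNF replicate 3 came close to the PBS range. The log2 fold change of -0.45 ± 0.16 (SE) at an adjusted p of 0.0431 was just past the threshold. That call was lost when any single library other than TNF replicate 3 was left out, with values from -0.34 (adjusted p = 0.0585, without TNF replicate 4) to -0.48 (adjusted p = 0.0902, without PBS replicate 1). Mfng (ENSMUSG00000018169, chromosome 15, 78640074 to 78657718, minus strand), manic fringe, had 0, 3, 10 and 4 counts in PBS and 5, 14, 8 and 3 in TNF, was under the filter and was not tested.

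Rbpj (ENSMUSG00000039191, chromosome 5, 53623494 to 53814704, plus strand), the factor through which all Notch receptors act on DNA, read 9.25, 8.89, 8.59 and 9.21 normalized CPM in PBS and 8.31, 8.66, 9.06 and 8.08 in TNF. The groups overlapped, with a log2 fold change of -0.07 ± 0.11 (SE) at an adjusted p of 0.613. Its processed pseudogene Rbpj-ps3 had at most 3 counts in any library.

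Several of these genes share sequence with an antisense neighbour, and none of the sources used here says whether the counting used strand. Dll1 exons overlap those of Fam120b on the other strand over 27.6% of their bases, and Fam120b rose by a log2 fold change of 0.55 ± 0.11 (SE) at an adjusted p of 0.00205, in the direction opposite to Dll1. The antisense long noncoding RNA Gm14207 overlaps 15.6% of Dll4 exon bases and fell by 1.04 ± 0.24 on the log2 scale (SE, adjusted p = 0.0052), and 0610009E02Rik overlaps 14.0% of Notch1 exon bases and fell by 1.5 ± 0.34 (SE, adjusted p = 0.00453). Reads of each pair could not be told apart without strand. Of all 75-base stretches of the canonical transcripts, 68.9% were unique to the gene for Dll1, 90.2% for Dll4, 81.5% for Notch1 and 96.9% for Notch2, and 100% for the other 6 genes.

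Levels between genes were compared as normalized CPM per kilobase of exon. In PBS the order was Dll4 at 7.04 ± 0.201, Lfng at 6.16 ± 0.302, Dll1 at 5.30 ± 0.398, Rfng at 2.49 ± 0.0567, Notch1 at 0.849 ± 0.159, Jag1 at 0.789 ± 0.0840, Rbpj at 0.70 ± 0.0240, Notch2 at 0.425 ± 0.0305, Jag2 at 0.198 ± 0.0357 and Mfng at 0.0408 ± 0.0467 (SD, n = 4 each). Among neighbours in that order only Notch1 and Jag1 had overlapping ranges, although with the length of the longest transcript in place of all exons Rbpj moved to place 5, ahead of Notch1 and Jag1. The neighbours whose ranges overlapped were then Dll4 and Lfng, Lfng and Dll1, and Rbpj and Notch1. By this measure Dll4 lay above 86.3% and Lfng above 84.3% of the tested genes with an annotated length, Dll1 above 81.8%, Notch1 above 34.5% and Jag2 above 9.56%. The Delta-like ligands and Lfng were thus well up the range of expression in control cells, and Notch1 and Notch2 (above 20.3%) in its lower part.

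In TNF the order changed to Dll1 at 2.30 ± 0.455, Rfng at 1.80 ± 0.408, Dll4 at 1.05 ± 0.191, Lfng at 0.784 ± 0.602, Rbpj at 0.663 ± 0.0333, Jag1 at 0.499 ± 0.105, Notch2 at 0.364 ± 0.0611, Jag2 at 0.279 ± 0.0926, Notch1 at 0.259 ± 0.0578 and Mfng at 0.0822 ± 0.0358 normalized CPM per kilobase (SD, n = 4 each). Among neighbours in this order, ranges were separate for Rfng and Dll4, for Rbpj and Jag1, and for Notch1 and Mfng, and overlapped for the rest. Dll4 went from place 1 to place 3, Lfng from 2 to 4 and Notch1 from 5 to 9. With the longest transcript as length these moves were from 1 to 4, from 2 to 5 and from 6 to 7, so the size of the Notch1 move depended on the length used.

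**Figure D3:**
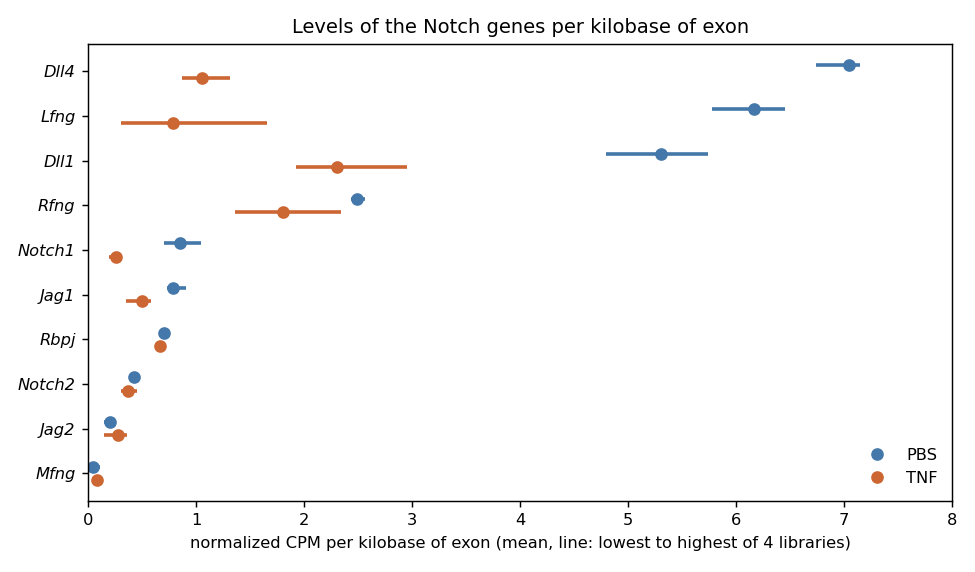
Mean normalized CPM per kilobase of exon (points) with the lowest and highest of 4 libraries (lines) for each gene in PBS and TNF, ordered by the PBS mean, and the axis is linear. Dll4, Lfng and Dll1 are far above the rest in PBS at 7.04, 6.16 and 5.30, and in TNF no gene has a mean above 2.30.

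Ratios of counts per kilobase within a library do not depend on how libraries are scaled, and are given as a description with no test. The ratio of Dll1 to Dll4 was 0.738, 0.710, 0.760 and 0.803 in PBS and 2.39, 3.39, 1.57 and 1.80 in TNF. By counts per kilobase, Dll4 thus stood above Dll1 in every PBS library and below it in every TNF library. Dll1 has fewer unique stretches than Dll4 (68.9% against 90.2%), and how shared reads were counted is not known. Whether the PBS order of these genes holds once shared reads are allowed for was not tested. The ratio of Notch1 to Notch2 was 2.31, 1.58, 2.19 and 1.90 in PBS and 0.697, 0.630, 0.671 and 0.842 in TNF, so that Notch1 was the more abundant per kilobase of all exons in every PBS library and Notch2 in every TNF library. With the length of the longest transcript the TNF ratios were 0.979, 0.885, 0.944 and 1.18, so both receptors then stood close to each other in TNF, while the ratios of Dll1 to Dll4 and of Lfng to Rfng kept their side of 1 in all 8 libraries. Lfng to Rfng went from 2.46, 2.53, 2.66 and 2.26 in PBS to 0.324, 0.179, 0.249 and 1.22 in TNF. TNF replicate 4 was the one TNF library in which Lfng stayed above Rfng. The Jag1 to Jag2 ratio overlapped between the groups, at 4.08 ± 0.788 in PBS and 2.07 ± 1.17 in TNF (SD, n = 4 each). Mfng was at most 0.0789 of Rfng in any library.

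**Figure D4:**
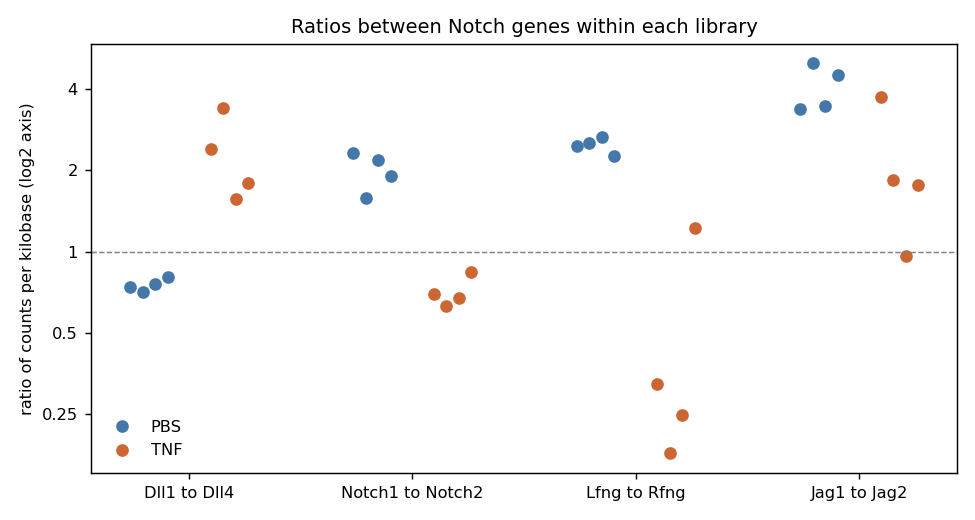
Ratio of counts per kilobase between pairs of Notch genes within each of the 4 PBS and 4 TNF libraries, on a log2 axis with a dashed line at 1. Dll1 to Dll4 lies below 1 in all PBS and above 1 in all TNF libraries, Notch1 to Notch2 the reverse with this length (all exons), and Lfng to Rfng falls below 1 in 3 of 4 TNF libraries.

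Further genes of the pathway were taken by role: 51 genes in 6 lists, of which 39 were tested, 5 rose, 12 fell and 22 did not pass (23.3% and 19.6% of all tested genes rose and fell), with a median log2 fold change of -0.11. Without TNF replicate 4, 9 rose and 14 fell, where 26.6% and 23.8% of all tested genes rose and fell, and the genes then also called included Furin (0.29), Ncstn (0.25) and Dtx2 (0.46), which were higher, and Spen (-0.49) and Nrarp (-0.62), which were lower. Of the other ligands and receptors, the 2 tested genes of 6 both fell. Notch4, a receptor best known from endothelium, went from 11.6 ± 1.49 to 3.81 ± 0.298 normalized CPM (SD, n = 4 each, log2 fold change -1.60 ± 0.14 SE, adjusted p = 8.82e-06). Dll3, a divergent ligand that does not activate receptors on neighbouring cells, went from 9.90 ± 1.96 to 5.56 ± 1.25 (log2 fold change -0.81 ± 0.20 SE, adjusted p = 0.00725). Notch3, Dlk1, Dlk2 and Dner were under the filter, with at most 13 counts in a library.

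Among 12 genes of receptor glycosylation and cleavage, 11 were tested, 2 rose, 2 fell and 7 did not pass. Adam10, the protease that makes the first cut in ligand-bound Notch, rose from 39.5 ± 2.06 to 72.7 ± 10.5 normalized CPM (SD, n = 4 each, log2 fold change 0.88 ± 0.13 SE, adjusted p = 0.000247). Adam17, a related sheddase that also releases TNF from cells, rose by 0.43 ± 0.12 (SE, adjusted p = 0.0131), a call lost without PBS replicate 1 (0.42), PBS replicate 4 (0.39), TNF replicate 1 (0.42) or TNF replicate 2 (0.32). Aph1b, a subunit found in some gamma-secretase complexes, fell by 1.71 ± 0.30 on the log2 scale (SE, adjusted p = 0.000975). Pofut1, which adds the fucose that Fringe enzymes extend, fell by 0.43 ± 0.13 (SE, adjusted p = 0.022) with overlapping groups, and did not pass once PBS replicate 1 (-0.42), PBS replicate 2 (-0.43), PBS replicate 3 (-0.40) or TNF replicate 2 (-0.43) was removed. The gamma-secretase genes Psen2, Psenen, Ncstn and Aph1a had log2 fold changes from -0.13 to 0.20 and did not pass. Aph1c was under the filter.

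The ubiquitin and endocytosis list, which handles ligand uptake and receptor turnover, had 10 of 12 genes tested, with 2 higher and 2 lower. Neurl1a, a Neuralized ubiquitin ligase that acts on ligands, rose from 1.05 ± 0.220 to 5.84 ± 1.5 normalized CPM (SD, n = 4 each, log2 fold change 2.48 ± 0.24 SE, adjusted p = 1.75e-05), whereas its relative Neurl1b went from 1.99 ± 0.431 to 0.374 ± 0.327 (log2 fold change -2.28 ± 0.45 SE, adjusted p = 0.00207, and -2.97 without TNF replicate 1). Neurl1b had 43 to 115 counts in PBS and only 1 to 23 in TNF, so the size of its fall is loosely set. Mib2 fell by 0.96 ± 0.18 on the log2 scale (SE, adjusted p = 0.00133), while Mib1, the ligase that most Delta and Jagged endocytosis is known to need, showed a log2 fold change of -0.17 ± 0.15 (SE) at an adjusted p of 0.39. Numb, an inhibitor of Notch in the receiving cell, rose by 0.39 ± 0.11 (SE, adjusted p = 0.0129), a call lost without PBS replicate 1 (0.32), TNF replicate 1 (0.35) or TNF replicate 2 (0.36). Numbl and Dtx1 were under the filter.

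In the nuclear complex 8 of 10 genes were tested, none rose and 2 fell. Maml3, a Mastermind coactivator, went from 7.67 ± 2.74 to 3.25 ± 0.909 normalized CPM (SD, n = 4 each, log2 fold change -1.25 ± 0.28 SE, adjusted p = 0.00439). Ep300, an acetyltransferase shared by many factors, fell by 0.54 ± 0.17 on the log2 scale (SE, adjusted p = 0.0258) with overlapping groups, a call lost without TNF replicate 3 (-0.49). Maml2 and Rbpjl were under the filter.

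Of 7 target genes, 4 were tested and 2 fell. Hes1, the repressor through which Notch is known to hold back Atoh1, was at 13.5, 12.4, 14.9 and 8.96 normalized CPM in PBS and 7.21, 6.02, 6.25 and 5.76 in TNF. Every TNF library was below every PBS library, with a log2 fold change of -0.97 ± 0.17 (SE) at an adjusted p of 0.000919. Heyl, a related repressor, went from 5.25 ± 1.04 to 1.45 ± 1.04 normalized CPM (SD, n = 4 each, log2 fold change -1.76 ± 0.42 SE, adjusted p = 0.00599). Its counts were 133 to 281 in PBS and 3 to 72 in TNF, the 3 being in TNF replicate 4. Nrarp, a feedback inhibitor of Notch, showed a log2 fold change of -0.54 ± 0.20 (SE) at an adjusted p of 0.0512, and Olfm4, a crypt stem cell gene that depends on Notch, one of -0.23 ± 0.22 (SE, adjusted p = 0.419). Hes5 and Hey1 were under the filter and Hey2 had no counts.

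Of the 4 secretory lineage factors that Notch is known to restrain, 2 fell and 1 rose. Atoh1 read 86.5, 66.1, 86.6 and 82.2 normalized CPM in PBS and 28.6, 19.4, 17.8 and 32.1 in TNF, with a log2 fold change of -1.72 ± 0.20 (SE) at an adjusted p of 5.51e-05. Gfi1, a repressor that acts after Atoh1 in secretory cells, went from 15.1, 16.3, 16.7 and 19.6 to 2.49, 0.969, 1.65 and 2.41, with a log2 fold change of -3.21 ± 0.25 (SE) at an adjusted p of 4.60e-06. Both were clearly separated between the groups. Spdef, a maturation factor of goblet and Paneth cells, rose by 0.41 ± 0.14 (SE, adjusted p = 0.0399) with overlapping groups, and its call was lost when any single library other than TNF replicate 4 was left out, over which its value ran from 0.31 to 0.46. Neurog3, the enteroendocrine factor, showed a log2 fold change of 0.43 ± 0.52 (SE) at an adjusted p of 0.535.

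**Figure D5:**
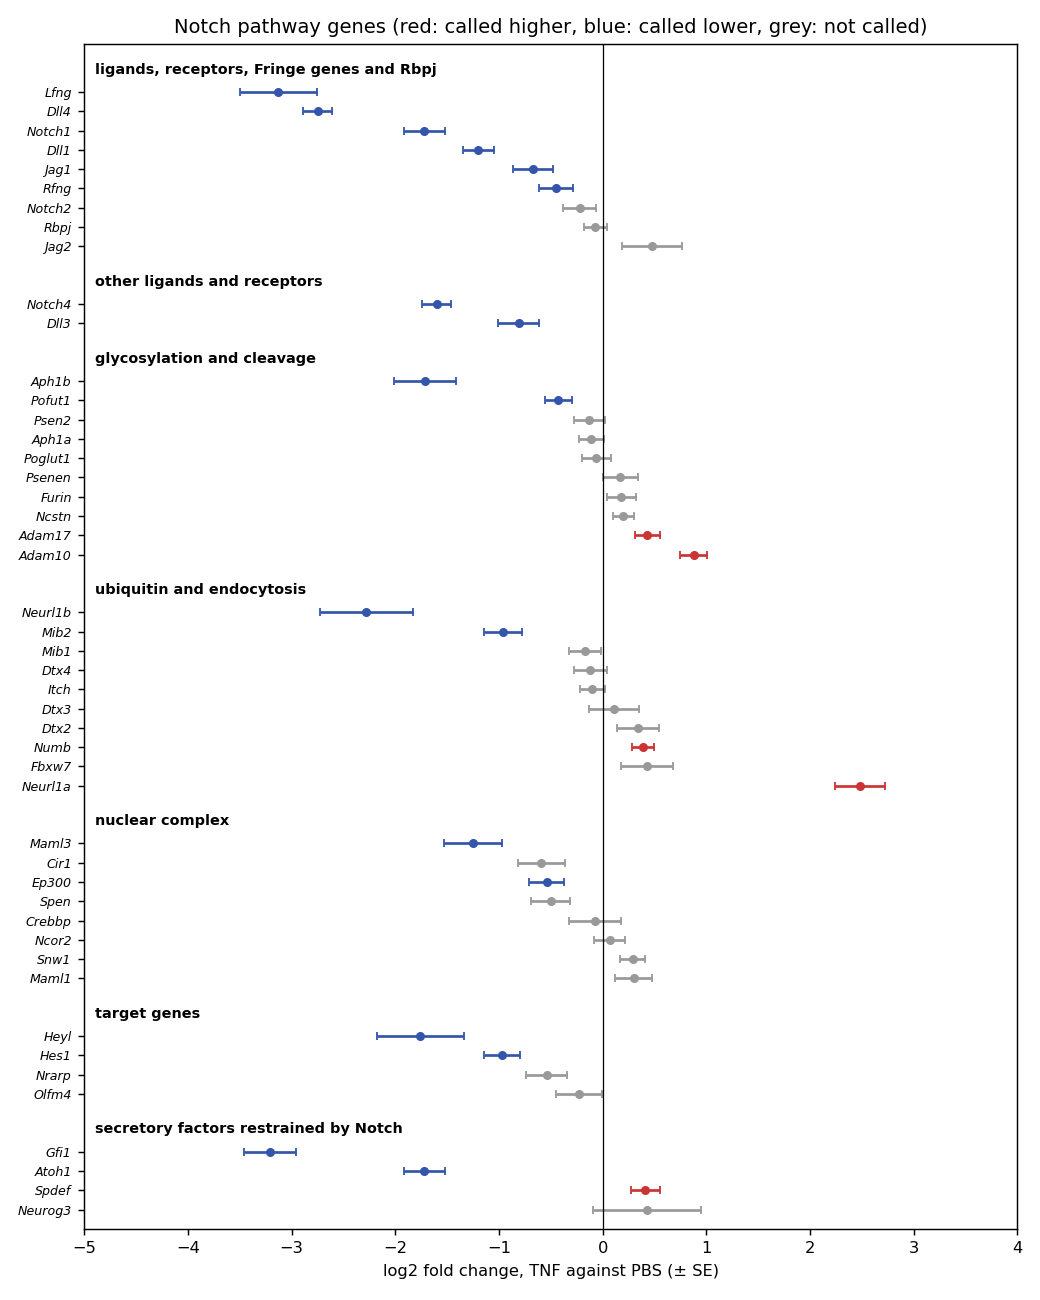
Log2 fold change (TNF against PBS) ± SE of the tested Notch genes that are reported, grouped by role, where blue genes were called lower, red genes higher and grey genes were not called at an adjusted p under 0.05. The ligands, receptors and Fringe genes span -3.13 (Lfng) to 0.48 (Jag2), and the other lists span -3.21 (Gfi1) to 2.48 (Neurl1a).

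The genes whose levels over the 8 libraries were most like those of Dll4 and Notch1 were listed as a description, from 8492 genes with a mean of at least 5 normalized CPM. For Dll4 they were Myorg, Prkcz and Hectd3, with Pearson's r of 0.997, 0.996 and 0.995, all of which fell (log2 fold changes -1.05, -1.36 and -1.26). For Notch1 they were Amot, Lgr5 and Zbtb38, with r of 0.988, 0.987 and 0.986 and log2 fold changes of -0.73, -1.21 and -1.30. The 8 points share the split between PBS and TNF.

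In RNA from a whole sorted population, fewer cells of a type and less RNA per cell cannot be told apart, so the levels of other cell types' markers are given beside these results. Stem cell markers fell in part: 4 of 5 were called lower (Lgr5, Ascl2, Smoc2 and Axin2), and Olfm4 was not (log2 fold change -0.23). Of all tested genes, 19.6% were called lower and 23.3% higher, a background for each count of markers given here. Lgr5, the defining marker, went from 52.6 to 22.7 normalized CPM. The summed level of the stem cell markers ran from 1455 to 2352 in PBS and from 1313 to 1856 in TNF, most of it Olfm4. Enterocyte markers had 2 of 6 lower (244 to 279 against 71.9 to 127 summed normalized CPM), goblet markers 1 higher and 2 lower of 5 (2900 to 4908 against 4861 to 6651), enteroendocrine markers 3 of 5 higher (25.3 to 33.7 against 47.4 to 120.1), tuft markers none of 3 (11.9 to 27.3 against 7.58 to 52.9) and cycling markers 1 of 4 lower (106 to 144 against 60.2 to 112). Of the lower goblet markers, Clca1 read 554 normalized CPM in PBS replicate 1 and 41.1 to 44.0 in the other PBS libraries, with overlapping groups. The upper TNF sums of the enteroendocrine and tuft markers were those of TNF replicate 4. Without TNF replicate 4 the enterocyte marker Sis was also lower (log2 fold change -0.92) and the enteroendocrine marker Gcg was not called (0.81). The part of these cells in the falls of Dll1, Dll4, Notch1 and Lfng was not tested. The study describes its sorted Paneth cells as nearly free of other cells.

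For the vessel-associated Dll4 and Notch4, endothelial RNA was near the limit of detection: Tie1 had no counts, Cdh5 at most 3, Kdr at most 1 and Pecam1 at most 9, and the 6 endothelial markers summed to 0.631 to 0.973 normalized CPM in PBS and 1.30 to 3.09 in TNF, where Vwf was higher (log2 fold change 1.33 ± 0.30 SE, adjusted p = 0.0046). Immune markers summed to 1.02 to 1.34 in PBS and 1.31 to 4.38 in TNF, with Cd3e at 0 and 1 of 6 higher, and stromal markers to 0.670 to 1.10 and 1.84 to 2.49, with Col1a2 and Col3a1 at 0 and 1 of 7 higher.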

How the data were processed

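RNA was sequenced from sorted Paneth cells in 4 PBS and 4 TNF libraries (TruSeq Stranded mRNA kit). The authors deposited raw counts for 55414 Ensembl gene IDs, with no normalization. The submitters' processing notes name FastQC 0.12, STAR 2.7.10a, DESeq2 and the mm39 build. The counting tool, its annotation and the use of strand were not given in the sources used here. Symbols, coordinates and exon lengths came from the GENCODE M39 annotation of GRCm39, which held 54749 of the IDs and not the other 665. Counts were scaled by TMM, filtered with filterByExpr and tested with edgeR's quasi-likelihood test (edgeR 4.0.16, R 4.3.3), adjusted by Benjamini-Hochberg over 13368 genes and called at an adjusted p under 0.05. DESeq2 1.42.0 and limma-voom (limma 3.58.1) served as alternatives, beside other scalings, filters, lengths and each library left out. Likeness used log2(normalized CPM + 0.1). Motifs were searched as exact letters on both strands.

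All members were described, and from each pathway list every gene called (up to 4 by smallest p) and those under the filter. Other pathway genes, marker genes and neighbours named were chosen after their values were seen. The members and lists were chosen with earlier results of these data known. Libraries with the same replicate number did not deviate together: correlations of their deviations from the group means ran from -0.144 to 0.0663, so the numbers were not taken as pairs. Totals of 23824717 to 32576077 counts set the precision, and TNF replicate 4 gave the fewest counts for most of these genes. Some genes of the pathway and marker lists are counted but not reported here.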

Additional observations from a re-analysis of the deposited data

Results flagged for a closer look

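The PBS and the TNF values of the 10 genes and of the 17 called pathway genes, 54 groups of 4 libraries, were searched for a library far from the others by Dixon's ratio, and 2 stood out, where chance gives about 1 in 20 groups. PBS replicate 2 held 26.6 normalized CPM of Dll4 against 28.2 in each of the other PBS libraries, a small gap that stands out because those 3 were nearly equal. PBS replicate 4 held 9.71 normalized CPM of Mib2 against 7.62 to 7.92 in the other PBS libraries. In both genes all TNF libraries lay below all PBS libraries, with or without that library.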

How the results depend on the processing

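Dll1, Dll4, Jag1, Notch1 and Lfng were called lower under all 16 alternatives, with log2 fold changes of -1.57 to -1.11, -3.14 to -2.69, -1.10 to -0.52, -2.13 to -1.63 and -3.65 to -2.87, and none of the 26 genes run under them (9 of the set and 17 called pathway genes) changed sign. With library size alone as the scaling, 3182 genes were called in place of 5746, the share of calls that were higher went from 54.3% to 23.8%, the median of all genes from 0.03 to -0.38, and Rfng (-0.80), Adam10 (0.53), Adam17 (0.06), Pofut1 (-0.78), Numb (0.03) and Spdef (0.04) lost their calls. Relative to that median the falls of Lfng (-3.65) and Notch1 (-2.13) remained. Rfng was also lost with no filter on counts beyond 1 in all libraries together (-0.48), as were Adam17 (0.39), Numb (0.36) and Spdef (0.37), and Spdef was lost with RLE scaling (0.40). Causes were not tested. The replicate numbers did not pair the libraries, and not every library correlated best with its own number; with the number as a replicate block 5087 genes, 5 Notch ligand, receptor and Fringe genes (not Rfng) and 16 other pathway genes were called, against 5746, 6 and 17. Spdef (0.40) was also not called in that fit. Leaving out each library in turn gave 4757 to 6923 genes, 5 to 6 of the set and 13 to 23 pathway genes. DESeq2 and limma-voom each called the 6 genes, and an adjusted p under 0.01 kept 4. Pathway genes' own values under these alternatives were added after the data were seen, as were ratios with the longest transcript. Mfng and the genes under the filter lie below what this depth can compare.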
